A study of Caenorhabditis elegans with 16 samples.

Results

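Starved first-stage larvae that carried a mutation of the insulin/IGF receptor gene daf-2 were compared directly with starved larvae that carried mutations of irld-39 and irld-52 and a wild-type daf-2 gene. The comparison uses the 4 libraries of the daf-2 mutant (strain CB1370, daf-2(e1370)) and the 4 libraries of the irld mutant (strain LRB444, irld-39(duk1); irld-52(duk17)), 8 of the 16 libraries of the study, taken by their genotype labels. The other 8 libraries, given here only as context, are 4 of a triple mutant with all 3 alleles (lines LRB457 and LRB458) and 4 of wild type (strain N2). Each library was made from the polyadenylated RNA of 10000 whole Caenorhabditis elegans larvae at 20 °C. They hatched without food and were taken 12 hours later, which is 24 hours after bleach had freed the embryos. The submitters call the 4 libraries of each genotype biological replicates. CB1370, LRB444 and N2 are 1 strain each, so the effect of an allele cannot be told apart from any other difference between the strains.

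In the worm, insulin-like peptides bind the receptor DAF-2, whose kinase cascade through AGE-1, PDK-1 and AKT keeps the transcription factor DAF-16/FOXO out of the nucleus. A weaker receptor leaves DAF-16 more active, which is known to raise stress defence genes such as sod-3 and to lower a set of gut genes such as dod-24. Larvae that hatch without food arrest as L1 larvae, and daf-2 mutants are known to survive that arrest for longer. The allele e1370 changes an amino acid in the kinase domain of the receptor and lowers its activity without removing its mRNA. Products of the irld family carry domains that resemble the ligand-binding parts of insulin and EGF receptors, and they lack a kinase.

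Counts assigned to genes ranged from 15616627 to 17632908 in the daf-2 libraries and from 15239744 to 18089336 in the irld libraries, and reads without a gene made up 41.2% to 42.4% of all reads in the 8 libraries. On the first principal component of log2 CPM over the 8 libraries, which held 47.2% of the variance, the daf-2 libraries lay at 46.1, 10.6, 68.6 and 6.72 and the irld libraries at -27.1, -23.5, -43.2 and -38.3. All 4 daf-2 libraries were therefore on one side, but daf-2 libraries 2 and 4 lay nearer the irld libraries than daf-2 libraries 1 and 3. Levels are CPM, counts scaled to the size of each library with TMM factors, and they are not corrected for gene length.

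The mutated genes were measured first. The receptor gene daf-2 (chromosome III, 2994514 to 3040846, WBcel235) had 481, 468, 426 and 429 CPM in the daf-2 libraries, against 383, 541, 550 and 570 CPM in the irld libraries. These ranges overlapped, and the log2 fold change was -0.18 ± 0.22 (SE) with an adjusted p of 0.647 in edgeR's quasi-likelihood test. For irld-39 (chromosome IV, 16233148 to 16236555) there were 4, 2, 1 and 6 counts in the daf-2 libraries, against 3, 4, 6 and 10 counts in the irld libraries. The ratio of summed counts per depth, daf-2 over irld, was 0.541 with a 95% counting interval of 0.252 to 1.11. For irld-52 (chromosome V, 15779679 to 15781247) the counts were 1, 5, 1 and 10 in the daf-2 libraries and 6, 1, 8 and 5 in the irld libraries, a ratio of 0.814 with an interval of 0.400 to 1.64. Counts of whole genes cannot show a point mutation or a small deletion, and at this depth neither irld gene could be told apart between the groups.

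Of 14058 genes tested, 2077 (14.8%) passed a Benjamini-Hochberg adjusted p of 0.05 in edgeR's quasi-likelihood test and are referred to as called, of which 1109 (7.89%) were higher and 968 (6.89%) were lower in the daf-2 mutant than in the irld mutant. The median log2 fold change was 0.88 among the genes called higher, -0.69 among those called lower and -0.005 over all genes tested. Of the higher genes 471 differed by over 2-fold and 155 by over 4-fold, and of the lower genes 281 and 62 did. The 4 daf-2 libraries all lay above or all lay below the 4 irld libraries for 1013 (91.3%) of the genes called higher and for 887 (91.6%) of those called lower. Over all genes tested, 3313 (23.6%) separated in this way. Among the called genes 2000 were protein-coding and 55 were pseudogenes. In bulk RNA of whole larvae, more cells of a type and more RNA per cell cannot be told apart.

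The number of calls depended on the daf-2 libraries that entered the test. Without daf-2 libraries 1 and 3 there were 556 higher and 560 lower genes, of which 519 and 498 were also called in the same direction with all 8 libraries. Without daf-2 libraries 2 and 4 there were 1055 higher and 729 lower genes, of which 796 and 508 were also called with all 8. In all, 400 higher and 334 lower genes were called with all 8 libraries and with either pair left out. Daf-2 libraries 1 and 3 were both above daf-2 libraries 2 and 4 for 45.8% of genes called higher, 31.8% of genes called lower and 31.1% of all genes tested.

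**Figure D1:**
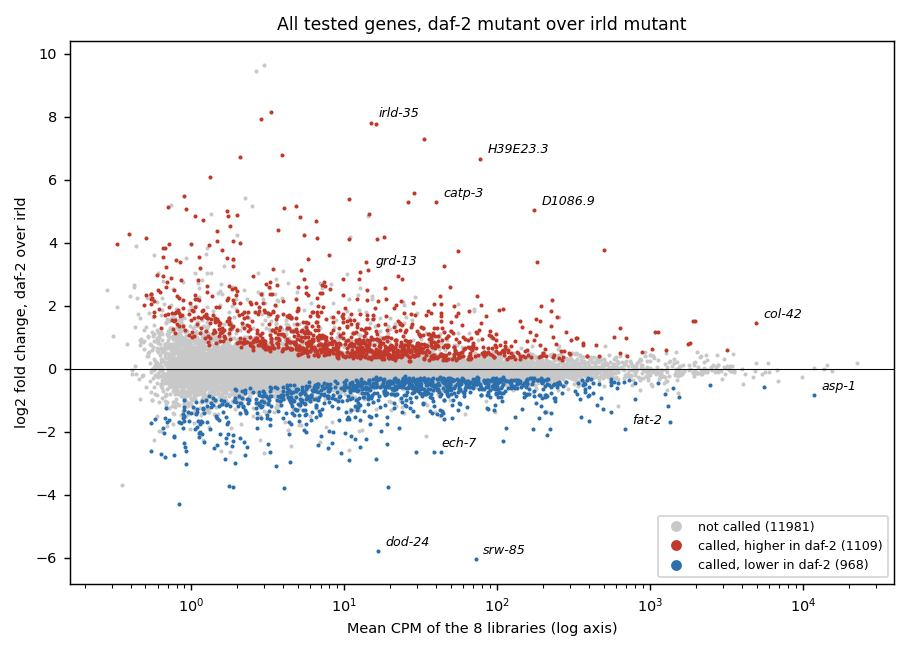
Each point is 1 of the 14058 tested genes, with the mean CPM of the 8 libraries on a log axis and the log2 fold change of the daf-2 mutant over the irld mutant on the other axis. The 1109 genes called higher are red, the 968 called lower are blue, and srw-85 and dod-24 stand far below the other called genes.

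In the same model a single gene separated the irld libraries from the N2 libraries (0.00711% of genes tested, with 911 at an unadjusted p under 0.05), and 0 genes were called in both comparisons, which share the irld libraries. That gene is ugt-64, which encodes a UDP-glycosyltransferase. It had 8.87, 8.26, 9.46 and 11.2 CPM in the daf-2 libraries and 8.65, 9.33, 8.50 and 9.98 CPM in the irld libraries, with 3.85 to 4.67 CPM in wild type. The daf-2 and irld libraries overlapped in ugt-64, with a log2 fold change of 0.05 ± 0.12 (SE) and an adjusted p of 0.832.

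Among the 30 genes listed as induced by DAF-16, 29 were tested, and 10 (34.5%) were higher and 4 (13.8%) lower in the daf-2 mutant, with a median log2 fold change of 0.36. The mitochondrial superoxide dismutase gene sod-3 had 46.8, 42.001, 37.2 and 35.6 CPM in the daf-2 libraries, against 14.3, 21.9, 10.4 and 13.4 CPM in the irld libraries. The groups did not overlap (log2 fold change 1.43 ± 0.24 SE, adjusted p = 0.000787), and wild type ranged from 10.2 to 24.5 CPM. The metallothionein gene mtl-1 had 477, 437, 490 and 442 CPM in the daf-2 libraries, against 285, 314, 213 and 244 CPM in the irld libraries. It was higher by 0.81 ± 0.19 on the log2 scale (adjusted p = 0.0095, and 0.0810 without daf-2 libraries 1 and 3), while the wild-type libraries spanned 229 to 498 CPM and so overlapped both mutants. The glyoxylate cycle gene icl-1, which lets fat be turned into sugar, had 377, 210, 421 and 230 CPM in the daf-2 libraries, against 68.9, 110, 68.5 and 61.7 CPM in the irld libraries. Its log2 fold change of 2.00 ± 0.33 (adjusted p = 0.000795) was the largest of these examples, and daf-2 libraries 1 and 3 were the highest.

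The catalase genes ctl-1, ctl-2 and ctl-3, which break down hydrogen peroxide and are close copies whose reads may be shared, were higher by 1.00, 0.78 and 1.16 on the log2 scale (SE 0.17, 0.17 and 0.19). The 30 antioxidant genes include sod-3 and the catalases, which were also counted among the genes induced by DAF-16. They held 8 higher (26.7%) and 1 lower gene (3.33%), against 7.89% and 6.89% of all genes tested. Without daf-2 libraries 1 and 3 they held 3 higher and 1 lower. The lower gene is prdx-2, which encodes a peroxiredoxin, and its call was lost without daf-2 library 1, 2 or 4 or irld library 1, 2 or 4. The other direction was taken by the small heat shock gene hsp-12.6, with 59.1, 59.5, 72.9 and 49.7 CPM in the daf-2 libraries and 137, 146, 133 and 118 CPM in the irld libraries. Every daf-2 library was below every irld library (log2 fold change -1.15 ± 0.27, adjusted p = 0.0084), although the gene is listed as induced by DAF-16. A second metallothionein gene, mtl-2, averaged 5.20 ± 1.63 CPM in the daf-2 mutant and 15.7 ± 1.63 CPM in the irld mutant (SD, n = 4 each), and the gut esterase gene ges-1 averaged 22.9 ± 3.88 and 41.7 ± 2.41 CPM in the same order. Both fell, by 1.59 and by 0.86 on the log2 scale (adjusted p = 0.00518 and 5.53e-05).

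Of 14 genes listed as repressed when DAF-16 is active, 8 were tested, 2 were lower and 0 higher. The gene dod-24, a gut gene of the immune response, had 1.06, 0.678, 0.130 and 0.475 CPM in the daf-2 libraries, against 36.8, 34.9, 24.2 and 35.8 CPM in the irld libraries. It fell by 5.79 ± 0.43 on the log2 scale (adjusted p = 7.3e-07), with triple mutant libraries between 0.127 and 0.849 CPM. Its relative dod-22 had 0.312, 0.740, 0.389 and 0.687 CPM in the daf-2 libraries and 7.49, 5.30, 8.44 and 8.79 CPM in the irld libraries (log2 fold change -3.79 ± 0.34). The transcription factor gene daf-16 itself averaged 229 ± 16.3 CPM in the daf-2 mutant and 260 ± 11.4 CPM in the irld mutant, which was not called (log2 fold change -0.18 ± 0.15, adjusted p = 0.466).

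**Figure D2:**
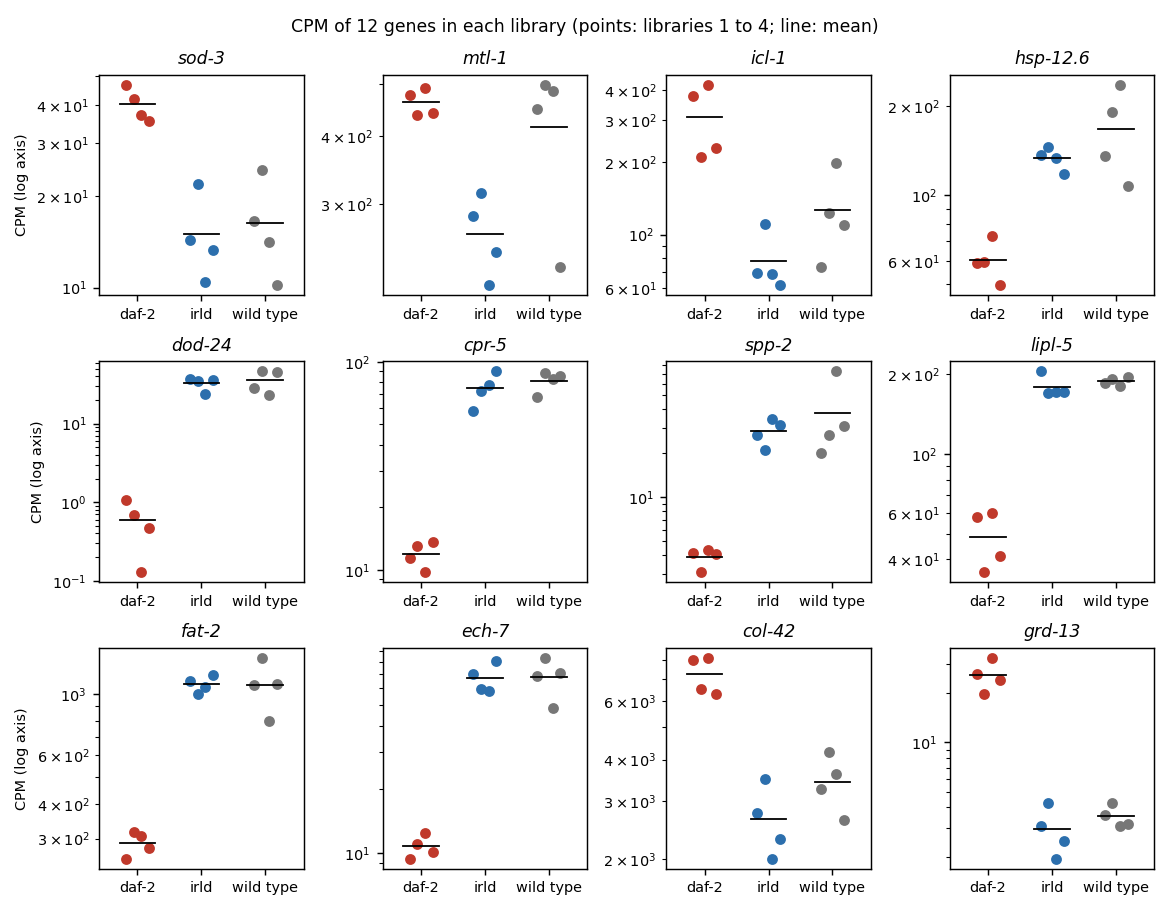
CPM of 12 genes (log axis) in 4 libraries each of daf-2 mutant, irld mutant and N2 larvae, with a point per library and a line at the mean. In each panel the 4 daf-2 libraries lie apart from the 4 irld libraries, and for mtl-1 the wild-type libraries overlap both mutants.

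Of 23 genes of the insulin pathway itself, from the receptor to DAF-16, 1 (4.35%) was higher and 1 (4.35%) lower, against 7.89% and 6.89% of all genes tested, so that the count stands near that share. The higher gene was pdk-1, which encodes a kinase below the receptor, and its call was lost without daf-2 library 1, daf-2 library 4 or irld library 3 (adjusted p 0.0575, 0.0533 and 0.0765). The lower gene, asna-1, is known to promote insulin secretion, and its call was lost without 6 of the 8 libraries. Of 39 insulin-like peptide genes 21 were tested, with 4 higher (19%) and 1 lower. The higher ones were ins-27, ins-4, ins-5 and ins-11, and 2 were higher without daf-2 library 1, without daf-2 library 3 or without both. Without daf-2 library 1 or without daf-2 library 3, ins-4 did not pass the filter on low counts and was not tested. The call of ins-11 was lost without 6 of the 8 libraries, and so was that of the lower gene, ins-17.

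Among these ligand genes ins-27 had 40.2, 28.5, 36.9 and 30.2 CPM in the daf-2 libraries, against 13.2, 13.5, 10.9 and 12.7 CPM in the irld libraries. The difference was 1.43 ± 0.14 on the log2 scale (adjusted p = 4.79e-06), with no overlap. The neighbouring genes ins-4 and ins-5 were higher at low levels. For ins-4 there were 22, 8, 51 and 5 counts in the daf-2 libraries and 1, 1, 1 and 2 counts in the irld libraries. The ratio was 16.47 with a counting interval of 6.79 to 52, and wild type had 6, 6, 1 and 12 counts. The ligand gene daf-28 averaged 4.33 ± 2.34 CPM in the daf-2 mutant and 3.69 ± 1.95 CPM in the irld mutant, and its adjusted p was 0.775. The counts of ins-7, a ligand gene of the adult gut, summed to 4 in each group.

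Of 56 irld genes 13 passed the filter on low counts. In the test irld-65 was higher by 1.06 ± 0.32 on the log2 scale (adjusted p = 0.0374), and irld-24 and irld-2 were lower by 0.86 ± 0.23 and by 0.76 ± 0.21 (adjusted p = 0.0176 and 0.0253). Both lower calls were lost without irld library 2, that of irld-2 also without irld library 1 or daf-2 library 1 or 4, and that of irld-65 without daf-2 library 1, 2 or 3 or irld library 3 or 4. The largest changes in the family were in irld-35 (chromosome V, 2456176 to 2458286) and irld-53 (chromosome V, 2348215 to 2350325), which passed the filter only through the daf-2 libraries and did not pass it without any 1 of them. The gene irld-35 had 443, 598, 369 and 595 counts in the daf-2 libraries and 0, 2, 5 and 1 counts in the irld libraries, a ratio of 240.0 with a 95% counting interval of 122 to 557. For irld-53 the counts were 527, 611, 387 and 627 in the daf-2 libraries and 0, 2, 3 and 4 in the irld libraries, a ratio of 229 with an interval of 120 to 501. The triple mutant, which carries the same daf-2 allele, had 16 and 9 counts of these genes summed over 4 libraries, and wild type had 5 and 1. High counts of both were thus found in strain CB1370 and not in the other 3 genotypes. A gene with no symbol beside irld-53, the pseudogene WBGene00017496, had the same pattern, with 102, 139, 85 and 116 counts in the daf-2 libraries and 0, 0, 1 and 0 counts in the irld libraries (ratio 423, counting interval 75.6 to 16750). Reads that fit a pair of places were assigned to 1 of them, so the counts of irld-35 and irld-53 may be shared.

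Among genes of lysosomal protein breakdown more were called lower than higher. Of 24 tested genes of cathepsin and aspartyl proteases, enzymes that cut proteins in lysosomes and in the gut lumen, 9 (37.5%) were lower and 1 higher, with a median log2 fold change of -0.30. The higher gene, cpr-3, lost its call without any 1 of the 8 libraries. The cathepsin B gene cpr-5 had 11.4, 13.01, 9.79 and 13.6 CPM in the daf-2 libraries, against 57.8, 72.7, 77.2 and 89.9 CPM in the irld libraries. It fell by 2.64 ± 0.17 on the log2 scale (adjusted p = 6.67e-08), and the wild-type libraries, at 67.7 to 88.5 CPM, lay with the irld libraries. Another cathepsin B gene, cpr-1, had 8.99, 9.07, 5.64 and 8.77 CPM in the daf-2 libraries and 34.1, 27.995, 102 and 39.03 CPM in the irld libraries, where library 3 was far above the rest. The aspartyl protease gene asp-14 averaged 72.5 ± 7.70 CPM in the daf-2 mutant and 272 ± 60.8 CPM in the irld mutant (log2 fold change -1.91 ± 0.23).

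Of all genes called lower, the one with the highest CPM was another aspartyl protease gene, asp-1, with 10176, 6742, 10019 and 7295 CPM in the daf-2 libraries, against 16757, 17048, 12997 and 14380 CPM in the irld libraries. Every daf-2 library was below every irld library, and the log2 fold change was -0.84 ± 0.19 (adjusted p = 0.00728). The related asp-3 averaged 2035 ± 346 CPM in the daf-2 mutant and 2907 ± 261 CPM in the irld mutant, but its call (adjusted p = 0.0247) was lost without irld library 1 or 2 or daf-2 library 2 or 4, with adjusted p between 0.0570 and 0.0776. Without daf-2 libraries 1 and 3, 7 of the protease genes were lower and 0 higher.

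Saposin-like proteins bind membrane lipids and lysozymes cut bacterial cell walls, and their genes went both ways: of 31 tested, 9 (29%) were lower and 6 (19.4%) higher. The 4 neighbouring saposin-like genes spp-2, spp-3, spp-4 and spp-6 on chromosome X fell together. Of these spp-2 had 4.12, 3.08, 4.34 and 4.07 CPM in the daf-2 libraries, against 26.9, 20.9, 34.6 and 31.3 CPM in the irld libraries (log2 fold change -2.86 ± 0.34, adjusted p = 5.27e-05). Beside it spp-6 averaged 1.00 ± 0.368 CPM in the daf-2 mutant and 7.78 ± 0.995 CPM in the irld mutant. The genes spp-18 (chromosome IV) and spp-17 fell by 1.18 ± 0.14 and by 3.76 ± 0.57 on the log2 scale. Higher members included the lysozyme gene lys-2, with 17.7, 17.3, 33.8 and 22.9 CPM in the daf-2 libraries and 5.25, 5.73, 4.49 and 4.74 CPM in the irld libraries. The lysozyme gene lys-1 averaged 101 ± 11.3 and 44.4 ± 11.1 CPM in the daf-2 and irld mutants, with a log2 fold change of 1.18 ± 0.22 (adjusted p = 0.00204). Without daf-2 libraries 2 and 4 the lower count of this list was 5.

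Lysosomal lipases free fatty acids from stored fat, and 5 of 8 lipl genes were tested. The gene lipl-4, whose product is known to lengthen life when raised, had 35, 35, 44 and 51 counts in the daf-2 libraries, against 3, 1, 1 and 5 counts in the irld libraries. That is a ratio of 15.8 with a counting interval of 8.38 to 33.6. In contrast lipl-5 had 57.6, 35.9, 59.8 and 41.4 CPM in the daf-2 libraries and 205, 170, 171 and 171 CPM in the irld libraries. It fell by 1.88 ± 0.16 on the log2 scale (adjusted p = 1.08e-06). The lipase gene lipl-7 was higher by 0.55 ± 0.11 (adjusted p = 0.00348), and the call of the third higher member, lipl-1, was lost without 5 of the 8 libraries. Without daf-2 library 1 there were 2 lower lipase genes.

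Of 32 tested autophagy genes, whose products enclose cytoplasm and carry it to the lysosome, 12 (37.5%) were lower and 0 higher, with a median log2 fold change of -0.28. The changes were small. The ubiquitin-like gene lgg-2, a homologue of mammalian LC3, had 279, 287, 301 and 258 CPM in the daf-2 libraries, against 460, 459, 469 and 473 CPM in the irld libraries. The groups stood well apart (log2 fold change -0.73 ± 0.09, adjusted p = 4.03e-05). The initiation factor gene epg-9 averaged 38.9 ± 5.34 CPM in the daf-2 mutant and 65.8 ± 3.95 CPM in the irld mutant. The late endosome gene rab-7 averaged 115 ± 8.09 and 172 ± 10.96 CPM, and the lipid-binding gene atg-18 averaged 244 ± 13.04 and 325 ± 10.5 CPM, each given for the daf-2 and then the irld mutant. All 3 were called (adjusted p = 0.000228, 0.00634 and 0.0119). The count of lower genes was 7 without daf-2 library 1 or irld library 1, 6 without irld library 2, 5 without daf-2 library 2 or irld library 4, and 4 without daf-2 library 4. It was 5 without daf-2 libraries 1 and 3, and 2 without daf-2 libraries 2 and 4.

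Fatty acid synthesis was the list with the largest share of lower genes among those with at least 10 tested members: of 24, 10 (41.7%) were lower and 1 was higher. The desaturase gene fat-2, whose enzyme starts the path to polyunsaturated fatty acids, had 254, 316, 307 and 278 CPM in the daf-2 libraries, against 1116, 998, 1059 and 1172 CPM in the irld libraries. It fell by 1.91 ± 0.14 on the log2 scale (adjusted p = 3.4e-07), and wild type, at 795 to 1343 CPM, overlapped the irld libraries. The next desaturase gene of that path, fat-3, had 122, 114, 117 and 103.97 CPM in the daf-2 libraries and 322, 331, 259 and 277 CPM in the irld libraries (log2 fold change -1.38 ± 0.13, adjusted p = 5.56e-06). The elongase gene elo-2, which lengthens palmitic acid, averaged 33.8 ± 2.04 CPM in the daf-2 mutant and 61.1 ± 7.62 CPM in the irld mutant. The elongase gene elo-5, needed for branched-chain fatty acids, fell by 3.73 ± 0.49 on the log2 scale to 0.244 ± 0.161 CPM in the daf-2 mutant, against 3.29 ± 0.487 CPM in the irld mutant.

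Genes of the enzymes that make monounsaturated fatty acids parted ways. The gene fat-6 had 57.1, 98.8, 129 and 96.9 CPM in the daf-2 libraries, against 265, 171, 362 and 333 CPM in the irld libraries (log2 fold change -1.57 ± 0.24, adjusted p = 0.000352). Its regulator nhr-80, a nuclear receptor gene, averaged 14.9 ± 2.45 CPM in the daf-2 mutant and 25.8 ± 1.33 CPM in the irld mutant and also fell (log2 fold change -0.79 ± 0.13). The single higher gene of the list was fat-5, with 5.18, 4.56, 18.3 and 6.02 CPM in the daf-2 libraries and 2.43, 1.06, 1.15 and 0.913 CPM in the irld libraries. Daf-2 library 3 stood far above the rest, and without daf-2 libraries 1 and 3 fat-5 was no longer called while 8 genes of the list were lower.

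Among fat breakdown genes the called ones were mostly higher: of 45 tested, 12 (26.7%) were higher, 3 (6.67%) were lower and 30 were not called. The peroxisomal oxidase gene acox-1.4 had 15.1, 14.4, 16.01 and 14.4 CPM in the daf-2 libraries, against 7.04, 4.88, 6.01 and 5.53 CPM in the irld libraries (log2 fold change 1.35 ± 0.17, adjusted p = 5.53e-05). The carnitine palmitoyltransferase gene cpt-6, of a family that brings fatty acids into mitochondria, averaged 15.7 ± 1.45 CPM in the daf-2 mutant and 8.26 ± 1.36 CPM in the irld mutant. The acyl-CoA dehydrogenase gene acdh-7 averaged 89.4 ± 28.97 CPM in the daf-2 mutant and 44.9 ± 3.72 CPM in the irld mutant. An exception was the enoyl-CoA hydratase family gene ech-7, with 9.43, 11.04, 12.5 and 10.1 CPM in the daf-2 libraries and 70.2, 59.4, 58.2 and 80.6 CPM in the irld libraries. It fell by 2.64 ± 0.15 on the log2 scale (adjusted p = 2.45e-08). Without daf-2 libraries 1 and 3 the list held 6 higher and 3 lower genes.

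Other called genes with a high CPM act on lipids. The fatty acid- and retinol-binding protein gene far-1 had 2462, 2082, 2691 and 2156 CPM in the daf-2 libraries, against 1588, 1578, 913 and 1210 CPM in the irld libraries (log2 fold change 0.83 ± 0.17, adjusted p = 0.00334). The gene pmt-1, which acts in phosphatidylcholine synthesis, had 1162, 991, 1356 and 847 CPM in the daf-2 libraries and 2334, 2271, 1656 and 1755 CPM in the irld libraries (log2 fold change -0.88 ± 0.18). Both separated the groups in every library.

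Of 21 tested genes of trehalose, glyoxylate and glucose synthesis, 4 (19%) were higher and 4 (19%) lower. The lower ones included trehalase genes, whose enzymes split the storage sugar trehalose. The gene tre-3 had 26.9, 34.04, 28.4 and 38.9 CPM in the daf-2 libraries, against 76.7, 75.4, 84.4 and 81.7 CPM in the irld libraries (log2 fold change -1.31 ± 0.13, adjusted p = 4.92e-06). The gene tre-5 averaged 7.06 ± 1.08 CPM in the daf-2 mutant and 27.8 ± 6.70 CPM in the irld mutant. Among the higher ones, beside icl-1, was the mitochondrial aconitase gene aco-2, with 603, 518, 557 and 541 CPM in the daf-2 libraries and 343, 329, 300 and 343 CPM in the irld libraries (log2 fold change 0.76 ± 0.11). Without daf-2 libraries 1 and 3, 2 were higher and 4 lower. The glutamate dehydrogenase gene gdh-1 averaged 4506 ± 565 CPM in the daf-2 mutant and 6731 ± 343 CPM in the irld mutant, with a log2 fold change of -0.58 ± 0.15 and an adjusted p of 0.0188. Its call was lost without daf-2 library 4 or irld library 2 (adjusted p 0.0582 and 0.0523).

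Collagens form the cuticle, and of 89 tested col genes 29 (32.6%) were higher and 5 (5.62%) lower in the daf-2 mutant, with a median log2 fold change of 0.90. Of all genes called higher, the one with the highest CPM was col-42, with 7979, 6550, 8080 and 6289 CPM in the daf-2 libraries, against 2759, 3494, 2008 and 2310 CPM in the irld libraries. Its log2 fold change was 1.45 ± 0.17 (adjusted p = 3.39e-05). The genes col-103 and col-98 were higher by 1.53 ± 0.18 and 1.51 ± 0.19. The gene col-50 had 38.8, 30.3, 37.5 and 31.5 CPM in the daf-2 libraries and 1.73, 3.11, 0.972 and 1.77 CPM in the irld libraries (log2 fold change 4.197 ± 0.37, adjusted p = 3.34e-06). For col-166 the mean was 352 ± 97.1 CPM in the daf-2 mutant and 98.8 ± 20.3 CPM in the irld mutant. Among the 5 lower genes were col-181, col-62 and col-7, which fell by 1.17, 2.05 and 1.36 on the log2 scale at levels under 5 CPM. The lower count was 3 without daf-2 library 1, irld library 1 or irld library 3 and without daf-2 libraries 2 and 4, and the higher count was 16 without daf-2 libraries 1 and 3.

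Named collagens that set body shape followed the same direction, with 7 of 12 tested higher and 0 lower. The gene dpy-10 had 6.31, 5.30, 7.001 and 4.02 CPM in the daf-2 libraries, against 1.54, 1.84, 0.972 and 1.26 CPM in the irld libraries (log2 fold change 2.01 ± 0.35, adjusted p = 0.00098). The gene dpy-14 had 43.03, 22.9, 54.9 and 19.3 CPM in the daf-2 libraries and 11.8, 8.27, 6.68 and 7.53 CPM in the irld libraries, so that daf-2 libraries 1 and 3 were again the highest. Without those libraries 1 of the 12 was higher, and without daf-2 library 2 there was 1 lower gene. Of 28 tested genes of molting and developmental timing 7 (25%) were higher and 1 lower, among them noah-2, a gene of the outer matrix that shapes the cuticle. It had 12.4, 15.9, 7.26 and 5.49 CPM in the daf-2 libraries and 2.24, 4.95, 2.31 and 2.28 CPM in the irld libraries. The log2 fold change was 1.81 ± 0.38. Wild type, at 5.46 to 10.1 CPM, lay above the irld libraries and overlapped the daf-2 libraries. The higher count of this list was 3 without daf-2 library 1, 4 without daf-2 library 3 or irld library 2, 3 or 4, and 2 without daf-2 libraries 1 and 3.

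Hedgehog-related and patched-related genes act in the epidermis and in molting, and of 56 tested 13 (23.2%) were higher and 2 (3.57%) lower. The groundhog gene grd-13 had 26.4, 19.9, 32.7 and 24.2 CPM in the daf-2 libraries, against 3.07, 4.24, 1.94 and 2.51 CPM in the irld libraries (log2 fold change 3.14 ± 0.23, adjusted p = 3.7e-07). Its neighbour grd-10 averaged 125.8 ± 23.8 CPM in the daf-2 mutant and 30.6 ± 10.2 CPM in the irld mutant. On chromosome V grd-5 had 68.8, 58.2, 74.9 and 74.4 CPM in the daf-2 libraries and 17.8, 20.9, 7.96 and 19.1 CPM in the irld libraries (log2 fold change 2.07 ± 0.24). The gene grd-4 had 92 counts summed over the daf-2 libraries and 2 over the irld libraries, a ratio of 44.0 with a counting interval of 11.8 to 369. The higher count was 7 without daf-2 library 1, 6 without daf-2 library 3 or irld library 1, and 5 without irld library 4 or without daf-2 libraries 1 and 3. The lower count was 1 without daf-2 library 1 or 4 or irld library 1, 2 or 4.

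**Figure D3:**
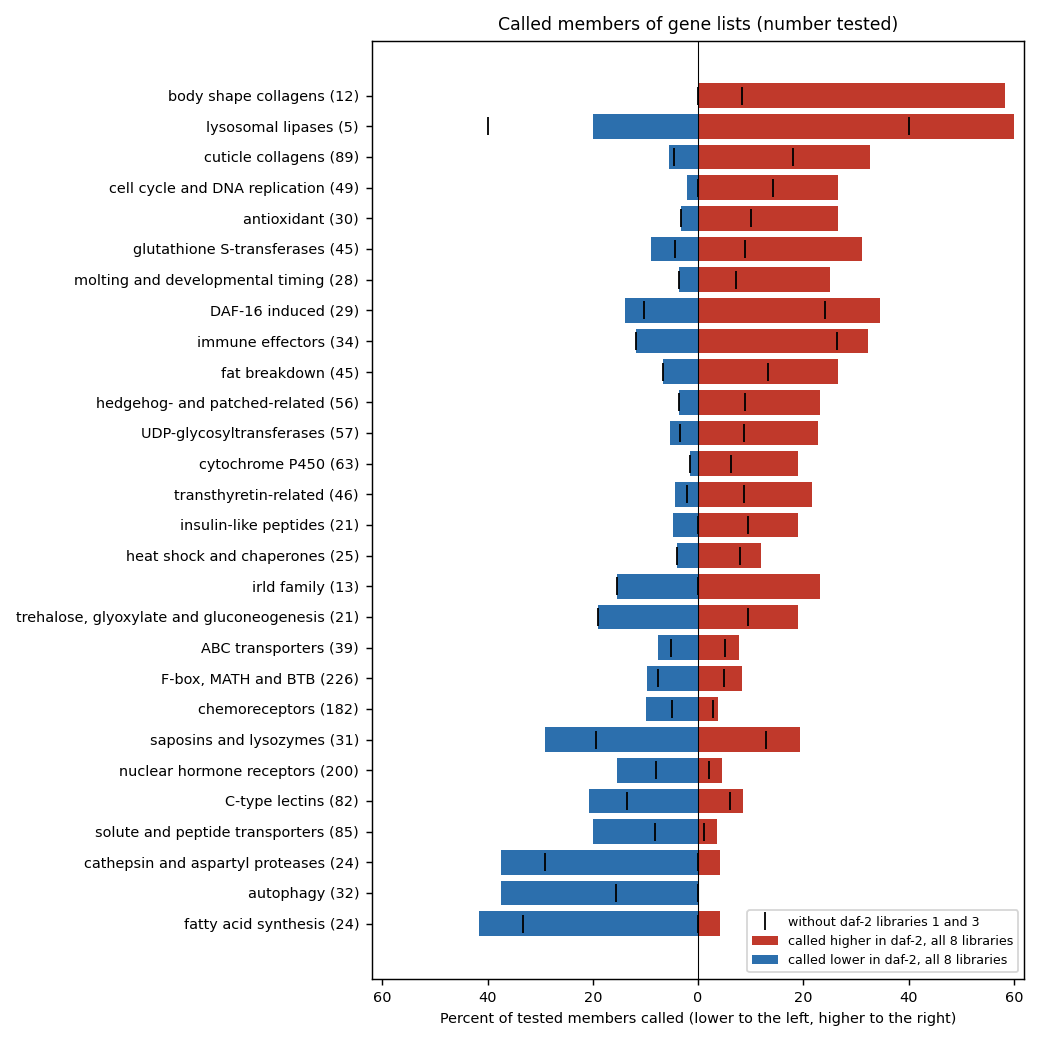
For each gene list with at least 4 called members, bars give the percent of tested members called higher (right, red) and lower (left, blue) in the daf-2 mutant, with the number tested in brackets. Black ticks give the same without daf-2 libraries 1 and 3, where the higher share of glutathione S-transferases was 4 of 45 genes against 14 of 45 with all 8 libraries, while fatty acid synthesis still held 8 lower genes.

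In each of 3 families of enzymes that modify foreign compounds more genes were higher than lower. Of 63 tested cytochrome P450 genes, which encode oxidising enzymes, 12 (19%) were higher and 1 lower. Of 57 UDP-glycosyltransferase genes 13 (22.8%) were higher and 3 lower, and of 45 glutathione S-transferase genes 14 (31.1%) were higher and 4 (8.89%) lower. The gene cyp-33C1 had 10.6, 15.2, 14.1 and 14.9 CPM in the daf-2 libraries, against 1.67, 2.90, 2.13 and 2.85 CPM in the irld libraries (log2 fold change 2.52 ± 0.29, adjusted p = 2.48e-05). The gene beside it, cyp-33C2, averaged 12.9 ± 1.70 CPM in the daf-2 mutant and 2.05 ± 0.814 CPM in the irld mutant. The single lower P450 gene, cyp-37A1, averaged 45.4 ± 6.55 and 76.6 ± 15.3 CPM in the daf-2 and irld mutants.

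Among the glycosyltransferases ugt-6 had 59.1, 47.6, 60.5 and 53.1 CPM in the daf-2 libraries, against 16.01, 18.8, 11.7 and 14.7 CPM in the irld libraries (log2 fold change 1.85 ± 0.17, adjusted p = 2.78e-06). The gene ugt-1 averaged 39.4 ± 3.38 CPM in the daf-2 mutant and 15.5 ± 4.03 CPM in the irld mutant. Of the glutathione S-transferases gst-3 had 66.7, 70.8, 78.6 and 67.1 CPM in the daf-2 libraries and 36.2, 39.6, 33.9 and 37.3 CPM in the irld libraries (log2 fold change 0.95 ± 0.14). The oxidative stress gene gst-4 had 31.98, 22.6, 89.7 and 15.96 CPM in the daf-2 libraries and 3.71, 7.14, 5.16 and 4.91 CPM in the irld libraries, with daf-2 library 3 far above the others. It was higher by 2.94 ± 0.64 (adjusted p = 0.00705) and lost its call without daf-2 libraries 1 and 3 (adjusted p 0.077). The gene gst-27 went the other way, at 31.5 ± 2.01 CPM in the daf-2 mutant and 69.9 ± 9.16 CPM in the irld mutant (log2 fold change -1.15 ± 0.14).

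The counts of these enzyme families changed with the libraries that entered the test, in both groups. Higher P450 genes numbered 6 without daf-2 library 3 or irld library 1, 7 without irld library 2, 4 without daf-2 libraries 1 and 3, and 20 without daf-2 libraries 2 and 4. Higher glycosyltransferases numbered 8 without daf-2 library 3 and 5 without daf-2 libraries 1 and 3. Higher glutathione S-transferases numbered 5 without daf-2 library 3, irld library 1 or irld library 2, 6 without irld library 3, 7 without irld library 4, and 4 without daf-2 libraries 1 and 3. Lower glutathione S-transferases numbered 2 without daf-2 library 1, daf-2 library 3, irld library 2 or irld library 4, and also without daf-2 libraries 1 and 3.

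Genes of immunity were higher more often than lower, with 11 (32.4%) higher and 4 (11.8%) lower of 34 tested. The fungus-induced protein-related gene fipr-26 had 15.7, 22.02, 25.8 and 17.8 CPM in the daf-2 libraries, against 1.28, 1.84, 0.364 and 1.198 CPM in the irld libraries (log2 fold change 4.13 ± 0.47, adjusted p = 3.86e-05). The thaumatin family gene thn-1 averaged 9.61 ± 2.44 CPM in the daf-2 mutant and 1.33 ± 0.366 CPM in the irld mutant. Beside dod-24 and dod-22, the lower genes included irg-4, at 0.412 ± 0.297 CPM in the daf-2 mutant and 1.84 ± 0.290 CPM in the irld mutant. Without daf-2 libraries 2 and 4 the lower count was 2. C-type lectins, sugar-binding proteins of which many respond to microbes, leaned to the other side, with 17 (20.7%) lower and 7 (8.54%) higher of 82 tested. The lectin gene clec-7 had 0.812, 0.925, 0.907 and 1.00 CPM in the daf-2 libraries and 4.87, 2.69, 8.74 and 6.39 CPM in the irld libraries (log2 fold change -2.63 ± 0.39). The gene clec-166 averaged 1.67 ± 0.284 and 6.98 ± 2.87 CPM in the daf-2 and irld mutants, and without daf-2 libraries 1 and 3 the lower lectins numbered 11.

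Genes of the cell cycle and DNA replication were higher in 13 (26.5%) of 49 tested and lower in 1. Over all genes tested 7.89% were higher and 6.89% lower. Their mean was 3.98 to 4.21 log2 CPM in the daf-2 libraries and 3.51 to 3.92 in the irld libraries. In wild type the list mean was 3.78 to 4.21, which overlapped both mutants. The kinetochore gene ndc-80 had 20.7, 20.5, 21.4 and 22.03 CPM in the daf-2 libraries, against 12.5, 11.7, 15.1 and 12.0 CPM in the irld libraries (log2 fold change 0.72 ± 0.11, adjusted p = 0.000322). Its daf-2 libraries agree within a narrow range. The replication helicase gene mcm-6 had 75.8, 73.3, 77.4 and 76.2 CPM in the daf-2 libraries and 52.1, 50.5, 47.5 and 40.2 CPM in the irld libraries (log2 fold change 0.67 ± 0.11). The helicase gene mcm-5 and the polo kinase gene plk-1 were higher by 0.75 ± 0.14 and 0.72 ± 0.15. The single lower gene was cdk-2, the kinase gene of entry into DNA synthesis, at 9.22 ± 0.419 CPM in the daf-2 mutant and 12.5 ± 1.11 CPM in the irld mutant. The higher count was 7 without irld library 4 and 7 without daf-2 libraries 1 and 3, and the lower count was 2 without daf-2 library 3. Of 10 tested marker genes of primordial germ cells, which are held in cell cycle arrest in starved L1 larvae, 1 was higher. The count was 2 without daf-2 library 3. The called gene, prg-1, which encodes a Piwi protein, averaged 28.6 ± 4.22 and 15.2 ± 2.17 CPM in the daf-2 and irld mutants. The summed level of these 10 markers was 101 to 169 CPM in the daf-2 libraries and 74.8 to 120 CPM in the irld libraries, and the part of germ cell number in the result was not tested.

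Nuclear hormone receptors, a large family of transcription factors that respond to lipids, were lower in 31 (15.5%) and higher in 9 (4.5%) of 200 tested. The gene nhr-18 had 62.1, 65.3, 66.6 and 61.1 CPM in the daf-2 libraries, against 102, 103.6, 94.7 and 100 CPM in the irld libraries (log2 fold change -0.65 ± 0.09, adjusted p = 0.000189). Its neighbour nhr-126 averaged 39.4 ± 3.32 CPM in the daf-2 mutant and 55.999 ± 1.498 CPM in the irld mutant. The gene nhr-246 was higher, with 11.7, 6.78, 11.7 and 8.19 CPM in the daf-2 libraries and 1.09, 1.98, 1.34 and 1.94 CPM in the irld libraries (log2 fold change 2.59 ± 0.31). The lower count was 20 without irld library 1 and 16 without either pair of daf-2 libraries, and the higher count was 4 without daf-2 library 3 or without daf-2 libraries 1 and 3, and 5 without any 1 of the irld libraries. Genes of solute and peptide transporters were lower in 17 (20%) and higher in 3 of 85 tested. The sulfate permease family gene sulp-5 averaged 10.4 ± 1.95 CPM in the daf-2 mutant and 23.9 ± 4.40 CPM in the irld mutant. This lower count was 11 without daf-2 library 1, daf-2 library 2 or irld library 4, and 7 without daf-2 libraries 1 and 3. The higher count was 5 without daf-2 library 2 and 1 without daf-2 library 3, without irld library 4 or without daf-2 libraries 1 and 3.

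In large families with other roles the shares stood nearer those over all genes tested, 7.89% higher and 6.89% lower. Of 226 tested F-box, MATH and BTB genes, whose products choose proteins for degradation, 19 (8.41%) were higher and 22 (9.73%) lower, and the higher count was 12 without irld library 1 or daf-2 library 4, 11 without daf-2 library 2 and 10 without irld library 4. Without daf-2 libraries 1 and 3 there were 11 higher genes of this list, and without daf-2 libraries 2 and 4 there were 10 higher and 12 lower. The gene fbxa-24 had 173, 195, 193 and 167 CPM in the daf-2 libraries, against 551, 546, 494 and 519 CPM in the irld libraries (log2 fold change -1.53 ± 0.11, adjusted p = 3.4e-07). Of 1309 chemoreceptor genes 182 passed the filter, with 18 (9.89%) lower and 7 (3.85%) higher. These genes leaned lower, with a median log2 fold change of -0.26, against -0.005 over all genes tested. That median was -0.26 without daf-2 libraries 1 and 3 and -0.25 without daf-2 libraries 2 and 4. The lower count was 11 without daf-2 library 1 or irld library 2, and 9 without daf-2 libraries 1 and 3. Lists of translation, respiration and neuropeptide genes held few calls with all 8 libraries. Cytosolic ribosomal proteins held 1 higher and 0 lower of 81, oxidative phosphorylation 2 higher and 0 lower of 42, FMRFamide-like peptides 0 higher and 1 lower of 30, and neuropeptide-like proteins 1 higher and 1 lower of 65. The ribosomal call was lost without irld library 1, and both calls of neuropeptide-like proteins were lost without irld library 1 or 4. Oxidative phosphorylation held 0 higher genes without daf-2 libraries 1 and 3. Without daf-2 libraries 2 and 4 there were 6 lower FMRFamide-like peptide genes, and 4 higher and 5 lower genes of neuropeptide-like proteins.

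The 12 largest called changes in each direction had at least 5 CPM in the higher group and no overlap of libraries. Of these, 10 of the higher genes and 4 of the lower genes were on chromosome V. Some of the largest changes were in genes with no role given here. The gene H39E23.3 (chromosome V, 14107811 to 14110051) had 181.2, 140, 145 and 148 CPM in the daf-2 libraries, against 0.833, 2.54, 1.64 and 1.08 CPM in the irld libraries (log2 fold change 6.67 ± 0.29, adjusted p = 1.11e-09). Its neighbour D1086.9 (14104270 to 14106330) had 428, 324, 358 and 251 CPM in the daf-2 libraries and 6.92, 17.04, 6.86 and 10.7 CPM in the irld libraries (log2 fold change 5.04 ± 0.54). The cation pump family gene catp-3 had 117, 38.5, 111 and 44.9 CPM in the daf-2 libraries and 1.15, 2.12, 3.10 and 1.54 CPM in the irld libraries (log2 fold change 5.29 ± 0.51). In all 3 the triple mutant libraries were high too, at 110 to 173, 310 to 650 and 44.5 to 95.5 CPM.

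Other large changes had a wide spread between the daf-2 libraries. The fatty acid- and retinol-binding protein gene far-3 had 39.8, 27.3, 137 and 18.8 CPM in the daf-2 libraries, against 1.09, 2.40, 0.546 and 0.685 CPM in the irld libraries (log2 fold change 5.59 ± 0.99, adjusted p = 0.00167). For F57H12.6 the daf-2 libraries had 47.2, 4.44, 208 and 3.06 CPM and the irld libraries 0, 0.778, 0.668 and 0.228 CPM, and C02E7.7 had 63.8, 4.38, 131 and 3.33 CPM in the daf-2 libraries and 1.28, 1.91, 1.82 and 0.228 CPM in the irld libraries. Daf-2 libraries 1 and 3 were far above 2 and 4 in both, and without libraries 1 and 3 neither was called (adjusted p 0.19 and 0.47). The same split was seen in gst-33, C45B2.3 and F56A4.5, whose calls were lost without any 1 of the irld libraries or without daf-2 library 3, and for C45B2.3 also without daf-2 library 1. Their highest adjusted p when 1 library was left out were 0.143, 0.155 and 0.0791.

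At the other end the chemoreceptor gene srw-85 (chromosome V, 19429387 to 19431136) had 2.31, 2.22, 2.98 and 1.27 CPM in the daf-2 libraries, against 138, 160, 132 and 141.7 CPM in the irld libraries (log2 fold change -6.03 ± 0.30, adjusted p = 5.15e-09). The triple mutant libraries, at 125.8 to 141 CPM, lay with the irld libraries, and wild type ranged from 58.2 to 147 CPM. Another chemoreceptor gene, srv-4, averaged 0.751 ± 0.252 CPM in the daf-2 mutant and 6.35 ± 1.95 CPM in the irld mutant. The astacin protease gene nas-6 had 3.06, 2.16, 3.11 and 1.90 CPM in the daf-2 libraries and 15.7, 17.6, 15.7 and 16.55 CPM in the irld libraries (log2 fold change -2.68 ± 0.20). The genes F47B8.10 and C17H12.8, for which no role is given here, fell by 3.76 ± 0.45 and by 2.90 ± 0.30 on the log2 scale.

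By chromosome, the share of tested genes called was 12.9% on I, 13.6% on II, 14% on III, 14.4% on IV, 14.9% on X and 17.9% on V, where 307 genes were higher and 224 lower of 2974 tested. On the mitochondrial genome 3 of 14 tested genes (21.4%) were called. There were 13 runs of at least 4 neighbouring tested genes that were all called in the same direction, 9 of them higher and 4 lower, and 5 were on chromosome V. Whether calls placed at random would give as many runs was not tested. One run on chromosome X (7301389 to 7318756) held sur-5 and the saposin-like genes spp-3, spp-2, spp-6 and spp-4, with log2 fold changes of -0.49, -0.84, -2.86, -2.95 and -2.16. The call of sur-5, a gene next to the saposin-like genes, was lost without any 1 library other than irld library 3. A run on chromosome IV (3438312 to 3466337) held grd-13, grd-3, grd-10 and F58E2.4, with log2 fold changes of 3.14, 1.90, 2.04 and 0.55. Farther along IV, gst-3, gst-2 and gst-4 were higher together by 0.95, 0.94 and 2.94 (10138104 to 10146225), and so were thn-1 and thn-2 by 2.85 and 1.94 (12374681 to 12383974). The call of gst-2 was lost without daf-2 library 2 or 4 or irld library 1, 2 or 3.

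On chromosome V the receptor genes nhr-103, nhr-18, nhr-126, nhr-134 and nhr-96 (2225430 to 2235180) were all lower, with log2 fold changes between -0.65 and -0.36. The calls of nhr-103 and nhr-134 were lost without any 1 of the 8 libraries, and that of nhr-96 without irld library 1 or 4. The longest run there (2453414 to 2531174) held 8 higher genes and included irld-35 and F56A4.3, which was higher by 3.63 ± 0.27. In that run irld-35 passed the filter on low counts only through the daf-2 libraries. Neighbouring genes are close copies in several of these runs, and some overlap, such as gst-4 with dhs-12, so their counts are not independent where reads fit more than 1 gene.

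**Figure D4:**
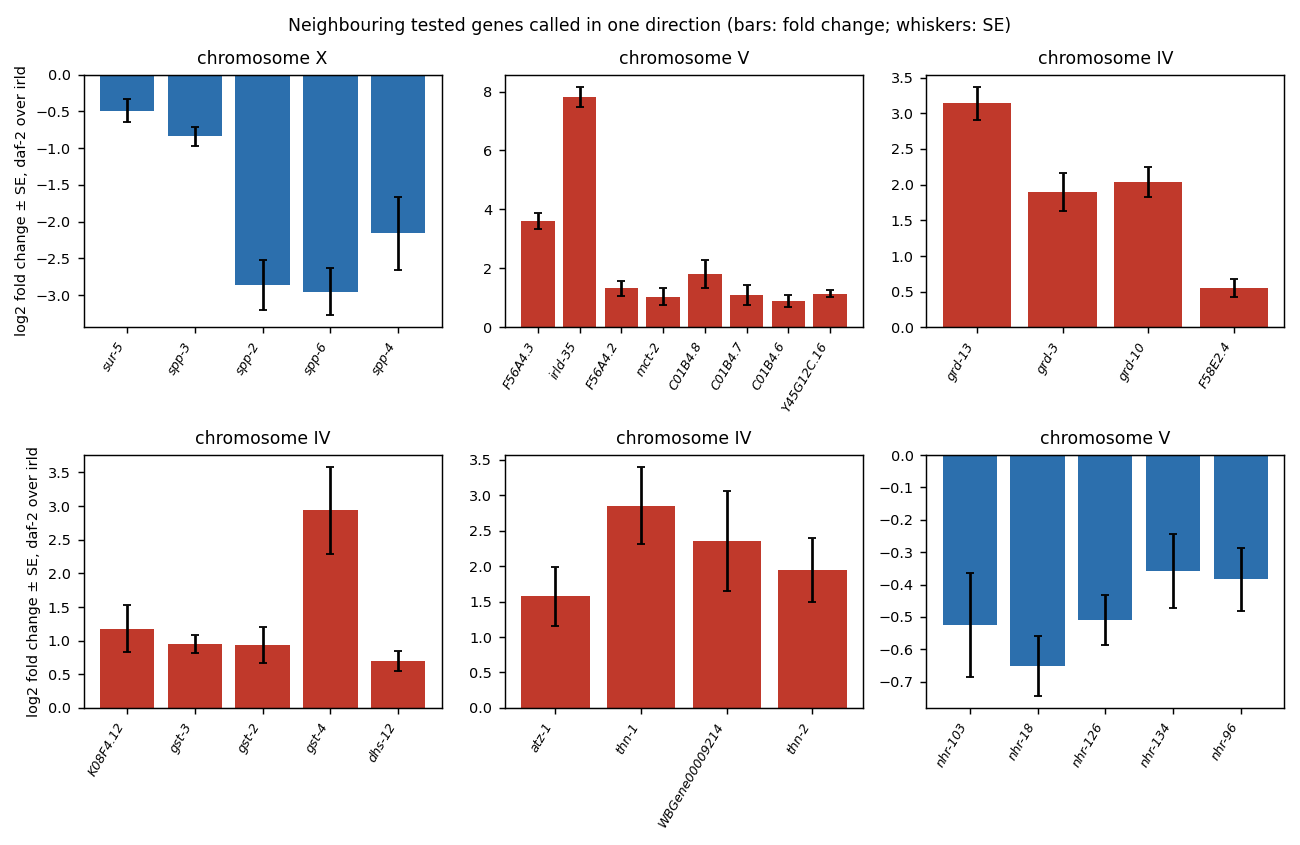
Log2 fold change of the daf-2 mutant over the irld mutant, with SE as whiskers, for 6 runs of neighbouring tested genes in chromosome order. The saposin-like genes and the nhr genes are all below 0, and the groundhog, gst, thn and irld-35 runs are all above 0.

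Markers of tissues and stages were set beside these results. All 8 pharynx markers had a fold change below 0, with 0 called and a median log2 fold change of -0.63. The summed level of the pharynx markers was 1643, 3968, 964 and 4240 CPM in daf-2 libraries 1 to 4 and 2202, 2738, 7712 and 5829 CPM in irld libraries 1 to 4. The 16 early embryo markers, with 0 called, averaged 2.40, 3.13, 1.45 and 3.09 log2 CPM in the daf-2 libraries and 2.73, 2.61, 3.39 and 2.66 log2 CPM in the irld libraries. Their sum ranged from 295 to 406 CPM in the daf-2 libraries and from 367 to 459 CPM in the irld libraries. No marker of either list was at 0 in either group. In wild type the sums ranged from 2439 to 4214 CPM for pharynx markers and from 306 to 498 CPM for early embryo markers. Without daf-2 libraries 2 and 4, 4 of the pharynx markers and 2 of the early embryo markers were called lower, with median log2 fold changes of -1.61 and -1.16. Without daf-2 libraries 1 and 3, 0 markers of either list were called, and the medians were -0.01 and 0.26.

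Daf-2 libraries 1 and 3 were thus the lowest of the daf-2 libraries in both marker lists, and they were the highest in collagens, hedgehog-related genes, P450s and glutathione S-transferases. The split was not particular to these lists. In mean log2 CPM the same 2 libraries were also the lowest in primordial germ cell markers (2.79 and 2.18, against 3.03 and 3.38) and in adult and oocyte markers. They were the highest in gut markers, hypodermis markers, and heat shock and chaperone genes. The widest such gap was in epidermal antimicrobial peptide genes (3.87 and 5.13, against 3.30 and 2.91). Glutathione S-transferase genes, 45 in number, averaged 4.13, 3.58, 4.91 and 3.39 log2 CPM in daf-2 libraries 1 to 4 and 3.04, 3.23, 3.26 and 3.31 log2 CPM in irld libraries 1 to 4. For the 24 cathepsin and aspartyl protease genes the mean was 6.47, 6.23, 6.56 and 6.26 in the daf-2 libraries and 7.04, 6.93, 7.12 and 7.05 in the irld libraries. For the 32 autophagy genes it was 5.83, 5.87, 5.86 and 5.78 in the daf-2 libraries and 6.07, 6.05, 6.12 and 6.07 in the irld libraries. Both lists separated the groups in every library, but this was not particular to them. Collagens did so too, with the lowest daf-2 library at 2.84 and the highest irld library at 2.58 log2 CPM. In the same order, hedgehog-related genes stood at 2.15 and 2.06, P450s at 2.52 and 2.48, and glutathione S-transferases at 3.39 and 3.31. Oxidative phosphorylation genes, with few calls, also separated (7.17 and 7.12). The mean of daf-2 libraries 1 and 3 minus that of daf-2 libraries 2 and 4 was 0.27 for the protease genes and 0.02 for the autophagy genes, beside daf-2 minus irld differences of -0.65 and -0.25. The part of the marker differences in the collagen, hedgehog-related and detoxification results was not tested.

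Markers of other tissues were summed in the same way. Summed gut markers were 2468 to 3139 CPM in the daf-2 libraries and 2483 to 3112 CPM in the irld libraries, with the microvillus actin gene act-5 higher by 0.92 ± 0.15 and ges-1 lower by 0.86 ± 0.11. Hypodermis markers summed to 146 to 179 CPM in the daf-2 libraries and 136 to 185 CPM in the irld libraries, and body muscle markers to 22199 to 26609 and 15103 to 26355 CPM in the same order. The 11 neuron markers summed to 3225 to 3390 CPM in the daf-2 libraries and 3870 to 4268 CPM in the irld libraries. These ranges did not overlap, and wild type, at 3021 to 4919 CPM, spanned both. Of the neuron markers 0 were called, and all 11 fold changes were below 0. Adult and oocyte markers summed to 10.3 to 30.5 CPM in the daf-2 libraries and 13.4 to 19.8 CPM in the irld libraries, with 1 and 2 of 10 at 0 in the daf-2 and irld libraries.

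**Figure D5:**
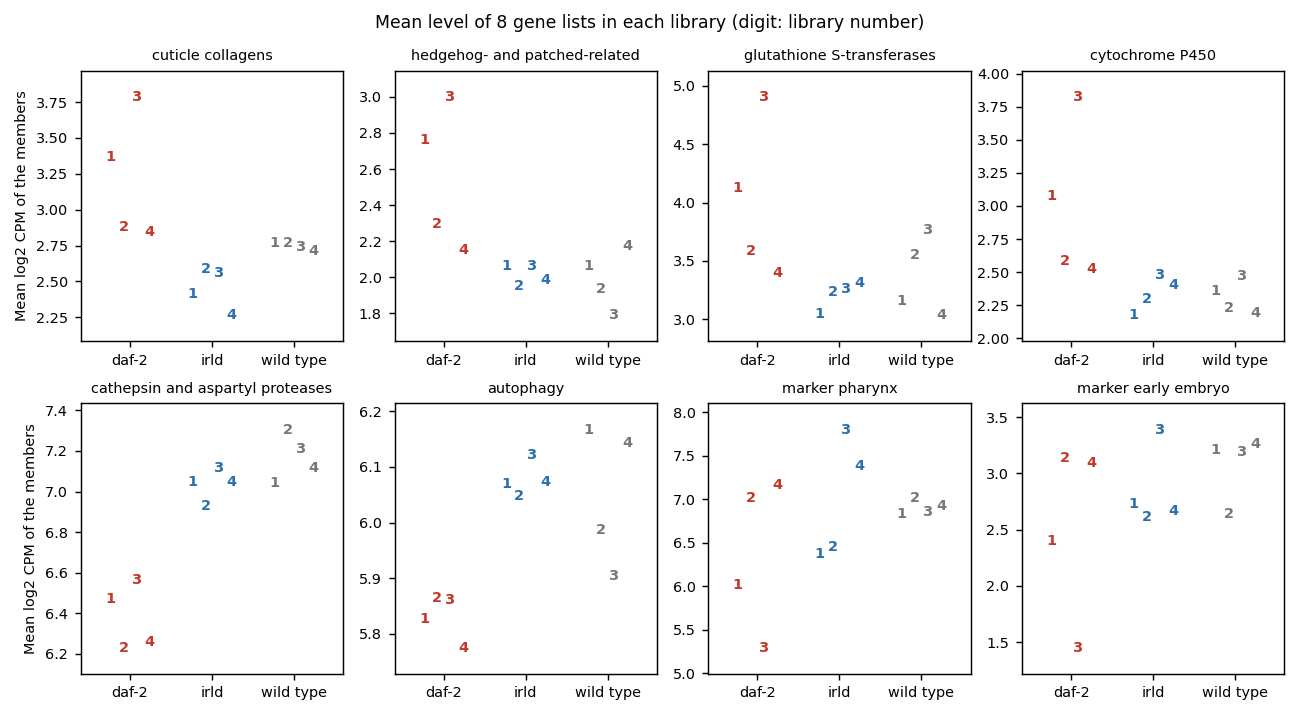
Mean log2 CPM of the members of 8 gene lists in each library, with the library number as the symbol, for daf-2 mutant, irld mutant and N2 larvae. In glutathione S-transferases daf-2 library 3 stands at 4.91 and the irld libraries between 3.04 and 3.31, while cathepsin and aspartyl protease genes stand at 6.23 to 6.56 in the daf-2 libraries and 6.93 to 7.12 in the irld libraries.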

How the data were processed

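RNA sequencing was made of 16 libraries of whole starved L1 larvae. The authors deposited whole-number counts of reads per gene for each library, with no normalization. Per the submitters' processing notes, reads were aligned to WormBase WS273 with Bowtie 1.2.2, counted with HTSeq 0.11.2 and tested with edgeR 3.24.4 on protein-coding genes. In the same notes a read with 2 possible places was kept at 1 of them and a read with more was dropped, so counts of near-identical genes (irld-35 and irld-53, or ctl-1, ctl-2 and ctl-3) are uncertain. The use of strand is not given in the sources used here, so overlapping and antisense genes cannot be told apart. The deposited tables hold 46911 genes and 5 summary entries, and the summary entries (41.2% to 42.4% of reads in the 8 libraries compared) were left out of library sizes and tests. Coordinates are from the Ensembl annotation of WBcel235, which is later than the annotation used for counting, and gene names were matched by gene ID.

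A gene entered the fit if 4 or more of the 16 libraries had 1 CPM or more of it. Genes were fitted with edgeR 4.0.16 (limma 3.58.1, R 4.3.3) in 1 model of 4 genotypes, with TMM factors and the robust quasi-likelihood test. The contrasts were the daf-2 mutant over the irld mutant and the irld mutant over wild type. All adjusted p-values are Benjamini-Hochberg values over the 14058 genes tested, and the threshold was 0.05. Standard errors (SE) are of the log2 fold change, and means are given with their SD over 4 libraries. For genes with few counts, the ratio of summed counts, corrected for depth, has an exact 95% interval that covers counting error only. The script was tested on simulated counts. DESeq2 1.42.0 and other alternatives are given in the closing section.

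Gene lists are described by counts of called members and medians, without a test. The members and lists were chosen with earlier results of these data known. Genes named in the text are the 12 largest called changes in each direction with at least 5 CPM in the higher group and no overlap, the 5 called genes with the highest CPM in each direction, up to 4 genes with the smallest adjusted p of each list with at least 2 called members, and a few set pathway genes. Chosen after their values were seen were fat-5, fat-6, nhr-80, col-181, col-62, col-7, cdk-2, irg-4, gst-4, ctl-2, prg-1, spp-17, lys-1, mtl-2, thn-1, thn-2, irld-65, ins-11, cpr-3 and prdx-2, and the members of the runs of neighbouring genes (F56A4.3, spp-4, sur-5, grd-3, F58E2.4, gst-2, dhs-12, nhr-103, nhr-134 and nhr-96). Replicate numbers were not used to pair the libraries in the reported fit, and no sequence was used here.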

Additional observations from a re-analysis of the deposited data

Results flagged for a closer look

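Within groups of 4 libraries, 18 of 286 groups looked at for the named genes held a library far from the other 3 by Dixon's test of the gap to the nearest library over the range. Chance alone flags about 1 in 20 such groups.

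In the daf-2 libraries, library 3 had 5.64 CPM of cpr-1 (the others 8.77 to 9.07), 1.556 CPM of spp-6 (the others 0.802 to 0.845) and 18.28 CPM of fat-5 (the others 4.56 to 6.02). Daf-2 library 4 had 0.4755 CPM of spp-17 (the others 0.130 to 0.187) and 51.67 CPM of sur-5 (the others 55.4 to 55.6). In the irld libraries, library 1 had 383.4 CPM of daf-2 (the others 541 to 570), 204.7 CPM of lipl-5 (the others 170 to 171) and 2.434 CPM of fat-5 (the others 0.913 to 1.15).

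Irld library 2 had 110.3 CPM of icl-1 (the others 61.7 to 68.9), 7243 CPM of gdh-1 (the others 6534 to 6610) and 4.949 CPM of noah-2 (the others 2.24 to 2.31). Irld library 3 had 12.33 CPM of dao-3 (the others 20.7 to 21.5), 24.23 CPM of dod-24 (the others 34.9 to 36.8), 102.1 CPM of cpr-1 (the others 28 to 39.03) and 17.37 CPM of sulp-5 (the others 25.6 to 26.4). The same library held the only count of WBGene00017496 and the only count of F56A4.5 among the irld libraries, 0.0607 CPM each. Irld library 4 had 277.2 CPM of daf-16 (the others 253 to 256). The gene dao-3, a target of the daf-2 pathway that encodes a folate enzyme, had 45.7, 39.04, 61.1 and 39.7 CPM in the daf-2 libraries and was higher than in the irld libraries by 1.29 ± 0.18 on the log2 scale (edgeR adjusted p = 0.000142).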

How the results depend on the processing

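The 2077 genes called between the daf-2 and irld mutants (1109 higher, 968 lower) became 390 (245 higher, 145 lower) in the test against a 1.5-fold change, and 1116 (556 higher, 560 lower) without daf-2 libraries 1 and 3. The first asks for a larger change. The second has fewer libraries, but the loss of daf-2 libraries 2 and 4, which leaves as many, gave 1784. The cause of this difference was not tested. Leaving out 1 library at a time gave 1486 to 1767 genes, with 776 to 1013 higher and 708 to 817 lower. Other filters, scalings, the DESeq2 Wald test, the fit of the compared groups alone and the loss of daf-2 libraries 2 and 4 gave counts within 1.5 times of the reported ones, between 1560 and 2524. Between the irld mutant and wild type the single call became 2 in the fit with a replicate block and 2 in the DESeq2 Wald test, and 0 in edgeR's test against a 1.5-fold change and 0 in edgeR's fit of these groups alone. Leaving out 1 library at a time gave 1 call each time, and 911 genes had an unadjusted p under 0.05 in the reported fit.

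Of the named genes 138 were called. Over 2665 comparisons with an alternative, 2418 kept direction and side of the threshold, 247 kept the direction and lost the call, and 0 reversed, and 67 genes lost their call at least once. Of these losses 59 were in the test against a 1.5-fold change, 26 without daf-2 libraries 1 and 3 and 24 without daf-2 libraries 2 and 4, and leaving out any 1 library gave 10 to 17 each.

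Replicate numbers did not consistently pair the libraries. Deviations from the group means correlated between -0.222 and 0.281 for equal numbers and between -0.324 and 0.289 for other numbers. With the replicate block 1967 genes were called, 1053 higher and 914 lower, and 6 named genes lost their call. Irld libraries 2, 3 and 4 correlated best with the wild-type library of their own number (0.176, 0.187 and 0.183), and irld library 1 did not. Daf-2 library 4 correlated best with irld library 4 (0.281), and daf-2 libraries 1, 2 and 3 correlated best with another number.

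The search for promoter motifs was not run, as no sequence was used here. Depth limits the genes with few counts: irld-39, irld-52 and ins-7 have wide counting intervals, and irld-35, irld-53 and WBGene00017496 were not fitted without any 1 of the daf-2 libraries.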
